A study of Homo sapiens with 4 samples.

Results

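The aminoacyl-tRNA synthetases are the enzymes that join each amino acid to its tRNA. They were examined here as 36 named genes, 20 for the cytosolic enzymes and 16 for the mitochondrial enzymes (names ending in 2), out of 58735 genes in the deposited count tables. The cells were HCT116, an established human colon cancer line, carrying a control shRNA (control_sh, 2 libraries) or an shRNA against RBM25 (RBM25_sh, 2 libraries), and no other allele or agent is given. The RBM25 protein binds RNA and takes part in splice site choice. The labels do not give the number of shRNA sequences or say that the libraries of a group came from separate cultures, so each p-value measures only how far these libraries spread, and that spread may be technical. The library totals lay between 15528274 and 16982663 counts, and each of the 36 genes had between 50 and 13050 counts in every library. RBM25 itself read 155 and 115 CPM under control_sh and 44.0 and 35.7 CPM under RBM25_sh, where CPM is the count scaled to a common library size with TMM factors. Of 8 epithelial markers 7 were measured, while VIL1 had at most 1 count. Their summed level was 3602 to 4538 CPM in control and 4552 to 5706 CPM in RBM25_sh libraries. KRT8 held much of that sum, at 1622 and 2091 CPM in control and 2409 and 3153 CPM in RBM25_sh libraries. Of the 7, 3 had log2 fold changes above 0 and 4 below 0. Of 10 markers of blood, vessel, stromal and liver cells 3 passed the filter on low counts, with a summed level of all 10 between 39.3 and 68.5 CPM, most of it COL1A1, and CD3E was at 0 in all 4 libraries. The smooth muscle gene ACTA2 read 3.23 and 4.02 CPM under control_sh and 0.603 and 1.02 CPM under RBM25_sh (edgeR adjusted p = 0.0501, 0.0240 with the DESeq2 Wald test and 0.00602 with edgeR after the GC correction), and its part in the results was not tested.

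Human cells carry separate synthetases for cytosolic and for mitochondrial protein synthesis, all encoded in the nucleus. GARS and KARS supply both compartments from the same gene, and EPRS is a fused enzyme for glutamate and proline. Some cytosolic enzymes are bound in the multi-synthetase complex, held together by the scaffold proteins AIMP1, AIMP2 and EEF1E1. When a tRNA stays uncharged, the kinase GCN2 (EIF2AK4) phosphorylates eIF2, which raises translation of the transcription factor ATF4. ATF4 with its C/EBP partners binds composite DNA elements of the form TGATGNAA, and several cytosolic synthetase genes are known ATF4 targets.

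The start regions of the genes were therefore searched for that element. Several of the cytosolic genes were known targets beforehand, so a higher share of matches among them is not independent evidence. RefSeq promoters (GRCh38.p14, 250 bases before to 50 after the start site) were found for 30 of the 36 genes, and DARS, LARS, VARS, YARS, AARS2 and VARS2 were without an entry. TGATGNAA occurred on either strand in 6 of 16 cytosolic promoters (37.5%), in 1 of 14 mitochondrial promoters (7.14%) and in 3.67% of all 27305 promoters of the same length. The 6 cytosolic matches all read TGATGCAA on their own strand. The stretches of 30 bases around each match follow, 5′ to 3′ on the strand of the gene, with the match in capitals.
AARS, chr16:70289675-70289704, minus strand: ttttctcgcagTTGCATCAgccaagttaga
CARS, chr11:3057407-3057436, minus strand: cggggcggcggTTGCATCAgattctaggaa
IARS, chr9:92293692-92293721, minus strand: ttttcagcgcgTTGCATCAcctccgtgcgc
MARS, chr12:57488053-57488082, plus strand: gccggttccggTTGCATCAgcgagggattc
NARS, chr18:57621804-57621833, minus strand: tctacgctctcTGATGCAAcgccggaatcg
TARS, chr5:33440956-33440985, plus strand: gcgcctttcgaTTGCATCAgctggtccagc
YARS2, chr12:32756076-32756105, minus strand: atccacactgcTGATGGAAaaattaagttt
In CARS and MARS the match spanned the start site, in NARS and TARS it lay within 21 bases after it, and in IARS it began 13 bases before it. In AARS the match began 187 bases before the start site, and in YARS2 it began 197 bases before it. A match describes letters in the window and not a bound site. The core of the motif of NRF1, a factor known for nuclear genes of mitochondrial function, occurred on either strand in 3 of 16 cytosolic and 3 of 14 mitochondrial promoters, against 6.29% of all promoters, and overlapped no TGATGNAA match.

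Under control_sh most cytosolic transcripts stood above most mitochondrial ones. Levels between genes are compared on the deposited FPKM, which divide by the listed gene length. The median over the 20 cytosolic genes was 39.0 and 41.9 FPKM in the control libraries, and over the 16 mitochondrial genes it was 5.33 and 6.88 FPKM. The highest control means were AARS for alanine at 143 ± 17.8 FPKM, GARS for glycine at 99.8 ± 24.6, NARS for asparagine at 81.8 ± 16.7, IARS for isoleucine at 79.8 ± 25.1 and SARS for serine at 78.9 ± 2.38 (SD, n = 2). The last 4 of these lay within each other's spread. IARS2 was the one mitochondrial gene among the upper ranks, the 10th of 36 at 46.4 ± 13.8 FPKM. HARS, for histidine, was the lowest cytosolic gene at 9.72 ± 1.19 FPKM, beside 11.6 ± 1.08 for the mitochondrial HARS2. The ratio of HARS to HARS2 in FPKM was below 1 in all 4 libraries, at 0.817 and 0.852 under control_sh and 0.753 and 0.803 under RBM25_sh. This order holds only per listed length, 7853 bases for HARS and 3736 for HARS2. In counts HARS was the higher, at 1146 and 1550 against 667 and 866 under control_sh and 1208 and 1452 against 763 and 860 under RBM25_sh. FARS2 and SARS2 were the lowest of all at 1.48 ± 0.148 and 1.52 ± 0.684 FPKM.

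**Figure D1:**
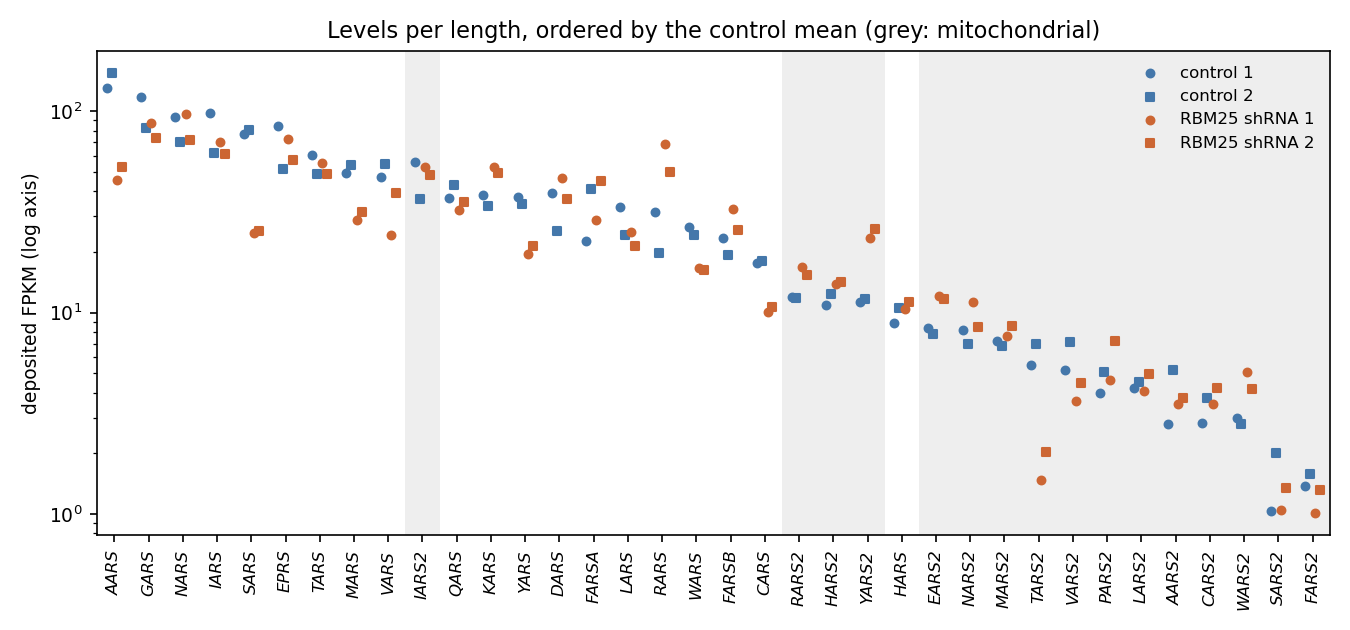
Deposited FPKM (log axis) of the 36 synthetase genes in each of the 4 libraries, ordered by the control mean, with mitochondrial genes on grey. Cytosolic genes fill the left side apart from IARS2 at the 10th rank, AARS drops from the 1st to the 9th rank and RARS moves from the 17th to the 5th.

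With the RBM25 shRNA, SARS, AARS and the mitochondrial TARS2 fell, 3.22-, 2.98- and 3.62-fold. Of the 20 cytosolic genes 2 were called lower and 0 higher at an edgeR adjusted p of 0.05, against 2.4% of all 16091 genes tested called lower, 0.653% called higher and 3.05% called in either direction. Of the 16 mitochondrial genes 1 was called lower and 0 higher. At an unadjusted edgeR p under 0.05, 6 cytosolic genes and 1 mitochondrial gene were lower and 1 gene of each class was higher, RARS and YARS2. Of all genes 13.5% were lower and 7.92% higher at that p, so the higher counts of both classes and the lower count of the mitochondrial class were near or below the background. RARS and YARS2 were also the 1 and 1 called higher by the DESeq2 Wald test, against 2.4% of all genes called higher and 4.34% called lower by that test, while limma-voom called 0 members higher. The control and RBM25_sh values did not overlap in 9 cytosolic genes that were lower and 3 that were higher, and in 3 and 7 mitochondrial genes. Among all genes tested 27.9% were lower and 23.9% higher without overlap, 51.8% in all. A lower value in such bulk RNA cannot be told apart from fewer cells that hold the transcript.

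**Figure D2:**
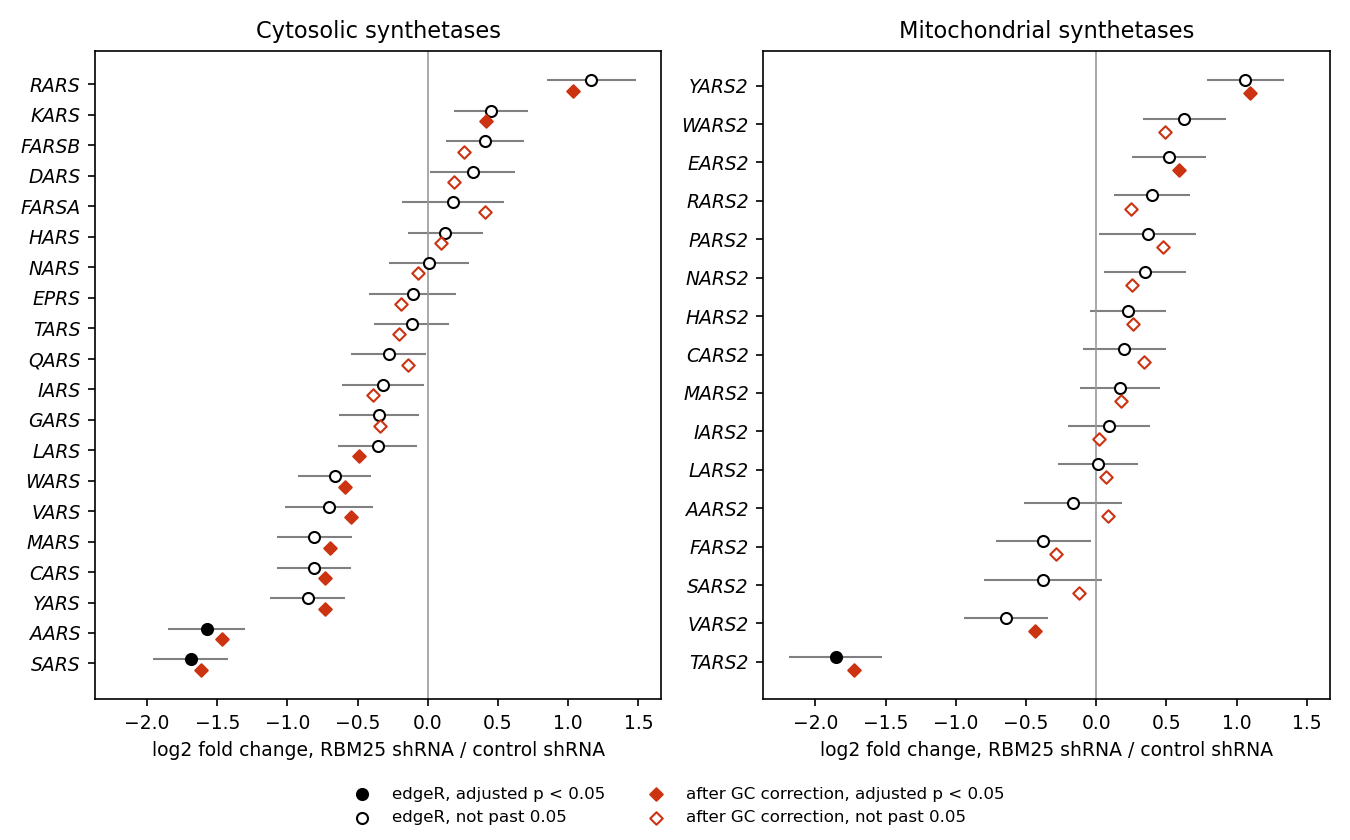
Log2 fold change (RBM25_sh over control_sh) of each cytosolic (left) and mitochondrial (right) gene. Circles with bars are edgeR values ± SE, diamonds are values after the correction for GC content, and filled symbols passed an adjusted p of 0.05. SARS, AARS and TARS2 lie farthest to the left, RARS and YARS2 farthest to the right.

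SARS (ENSG00000031698, GRCh38 chromosome 1, 109213918 to 109238169, plus strand) charges serine and also selenocysteine tRNA. It read 308 and 322 CPM under control_sh and 94.6 and 101 CPM under RBM25_sh. The groups lay far apart and each pair was close together. The change was −1.69 ± 0.27 on the log2 scale (SE, edgeR adjusted p = 0.0163). AARS (ENSG00000090861, chromosome 16, 70252295 to 70289543, minus strand) charges alanine. Its values were 608 and 728 CPM under control_sh and 203 and 246 CPM under RBM25_sh. Its groups were also far apart, at −1.57 ± 0.27 on the log2 scale (edgeR adjusted p = 0.0219). Neither gene shares exon bases with another listed gene. A fit without RBM25_sh replicate 1 or 2 takes its spread from the control pair alone, and there the edgeR adjusted p was 0.207 and 0.152 for SARS and 0.261 and 0.125 for AARS. The 250 bases before the RefSeq start sites of both genes are given because these genes fell most in their class. Capitals mark the TGATGCAA match, which reads TTGCATCA on the strand of AARS, and the SARS stretch holds no such match.
AARS, chr16:70289507-70289756, minus strand: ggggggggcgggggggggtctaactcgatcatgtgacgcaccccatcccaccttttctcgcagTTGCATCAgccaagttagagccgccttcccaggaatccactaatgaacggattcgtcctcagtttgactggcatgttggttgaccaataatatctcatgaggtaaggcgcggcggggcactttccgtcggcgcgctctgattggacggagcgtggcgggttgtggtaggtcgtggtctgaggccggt
SARS, chr1:109213643-109213892, plus strand: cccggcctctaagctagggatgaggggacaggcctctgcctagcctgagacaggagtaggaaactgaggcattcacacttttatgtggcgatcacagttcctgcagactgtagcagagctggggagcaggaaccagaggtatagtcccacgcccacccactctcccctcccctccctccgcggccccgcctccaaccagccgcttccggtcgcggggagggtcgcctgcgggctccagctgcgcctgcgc

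A further 5 cytosolic genes had values 1.58- to 1.81-fold below the controls without passing the threshold. YARS, for tyrosine, had 319 and 298 CPM in control and 158 and 183 CPM in RBM25_sh libraries (log2 fold change −0.86 ± 0.27, edgeR adjusted p = 0.110). CARS, for cysteine, had 183 and 189 against 101 and 112 CPM (−0.81 ± 0.26, edgeR adjusted p = 0.124). MARS, for methionine and so also for the initiator tRNA, had 358 and 398 against 200.2 and 231 CPM (−0.81 ± 0.26, edgeR adjusted p = 0.126). In these 3 genes, as in WARS and VARS that follow, both RBM25_sh libraries were below both controls. WARS, the interferon-inducible enzyme for tryptophan, had 176 and 161 against 105 and 107 CPM (−0.66 ± 0.26, edgeR adjusted p = 0.185). VARS, for valine, had 296 and 345 against 146 and 248 CPM, with RBM25_sh replicate 1 far below replicate 2 (−0.70 ± 0.32, edgeR adjusted p = 0.235). After a correction for each library's trend with GC content these 5 genes were called lower, between −0.73 and −0.55, with edgeR adjusted p-values from 0.00339 to 0.0455. That fit called many more genes, with 15.4% of all genes tested lower and 28.3% in either direction. MARS overlaps DDIT3, the gene for the stress factor CHOP, by 355 exonic bases on the opposite strand. DDIT3 was itself called lower, with 769 and 1500 counts in control and 115 and 152 in RBM25_sh libraries and MARS had 5664 and 7126 against 2988 and 3632 counts. How reads in the shared bases were assigned is not given in the sources used here. YARS shares 396 exonic bases with S100PBP on the opposite strand, which was not lower (721 and 651 against 961 and 766 counts).

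RARS, for arginine, was the cytosolic gene with the highest fold change. It read 113 and 70.5 CPM under control_sh and 232 and 178 CPM under RBM25_sh. Both RBM25_sh libraries were above both controls, and in each group replicate 1 was the higher. The log2 fold change was 1.16 ± 0.32 and missed the threshold (edgeR adjusted p = 0.0796), while it passed with the DESeq2 Wald test (adjusted p = 0.0126) and once GC content was corrected for (1.03 ± 0.14, edgeR adjusted p = 9.7e-04). KARS, for lysine in both compartments, had 163 and 144 CPM against 212 and 207 CPM without overlap (0.45 ± 0.26, edgeR adjusted p = 0.358; corrected for GC content 0.42 ± 0.13 and 0.0410). The other gene that serves both compartments, GARS, had 505 and 357 against 361 and 317 CPM, and its groups overlapped (−0.35 ± 0.28, edgeR adjusted p = 0.519). The phenylalanine enzyme is built from FARSA and FARSB subunits, whose log2 fold changes were 0.18 ± 0.36 and 0.41 ± 0.28.

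**Figure D3:**
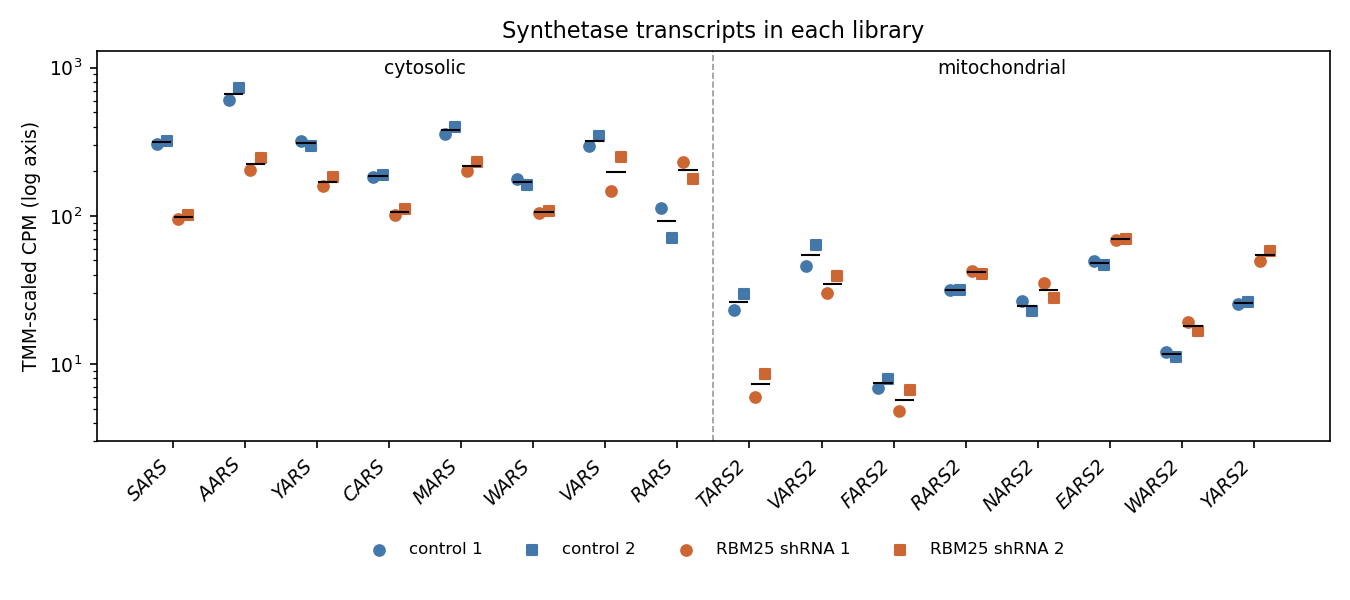
TMM-scaled CPM (log axis) in each library for 8 cytosolic and 8 mitochondrial genes, with circles for replicate 1, squares for replicate 2 and bars for group means. SARS, AARS and TARS2 show the widest gaps below the controls, and RARS and YARS2 lie above them.

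Enzymes of the multi-synthetase complex were set beside the free cytosolic enzymes. None of the 8 complex enzymes was called by edgeR (median log2 fold change −0.19), with 1 lower (MARS) and 1 higher (RARS) at an unadjusted p under 0.05, near the 13.5% and 7.92% of all genes, whereas 2 of 12 free enzymes were called lower (median −0.51). Over all genes tested the median was −0.04, and edgeR called 2.4% lower and 0.653% higher. After the GC correction 2 complex enzymes were called lower, LARS and MARS, and 2 higher, KARS and RARS. Of the free enzymes 6 were then called lower and 0 higher, with 1 of 12 higher at an unadjusted p under 0.05 (FARSA, beside 19.2% of all genes), against 15.4% of all genes called lower, 12.9% higher and 28.3% in all under that correction. The difference between the 2 sets was not tested. EPRS had 480 and 294 CPM in control and 392 and 325 CPM in RBM25_sh libraries. Its log2 fold change was −0.11 ± 0.31, and those of DARS, QARS, IARS and LARS lay between −0.36 and 0.32. By structural class, 0 of 19 class I enzymes (medians −0.11 in edgeR and −0.14 after the GC correction) were called by edgeR. Of 17 class II enzymes 3 were called, all lower, beside the same 2.4% of all genes. The class II medians were 0.01 in edgeR and 0.08 after the GC correction, above those of class I. At an unadjusted p under 0.05, 4 class I genes were lower and 2 higher and 3 class II genes were lower and 0 higher, beside the same 13.5% and 7.92%. The GC correction called 7 class I genes lower and 3 higher, and 3 class II genes lower and 1 higher, beside the same 15.4% and 12.9% of all genes. EPRS, the fused enzyme for glutamate and proline, was counted in class I only, while PARS2, for proline, was counted in class II. The difference between the structural classes was not tested.

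The 6 cytosolic genes with a TGATGCAA match did not move alike. Their log2 fold changes were −1.57 in AARS, −0.81 in CARS, −0.81 in MARS, −0.32 in IARS, −0.11 in TARS and 0.01 in NARS. AARS alone of these passed the edgeR threshold. NARS had 398 and 299 CPM in control and 393 and 306 CPM in RBM25_sh libraries, nearly the same pair of values in both groups. SARS and WARS, with values below the controls, had no match in the window searched. YARS and VARS, also below the controls, had no promoter to search. The mitochondrial gene with a TGATGNAA match, YARS2, was at 1.06.

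Among the mitochondrial enzymes, TARS2 fell and YARS2 had the highest fold change. TARS2 (ENSG00000143374, chromosome 1, 150487364 to 150507609, plus strand), the mitochondrial threonine enzyme, had 23.1 and 29.6 CPM in control and 5.96 and 8.60 CPM in RBM25_sh libraries. These are 366 and 531 counts against 89 and 135, with a wide gap between the groups. The log2 fold change was −1.86 ± 0.33 (edgeR adjusted p = 0.0232), and the adjusted p was 0.206 without RBM25_sh replicate 1. The only gene that shares its exons is the microRNA gene MIR6878, at 0 counts. The 250 bases before its RefSeq start, which lies 55 bases inside the listed gene, are shown because it is the mitochondrial gene that was called, and they hold neither motif.
TARS2, chr1:150487169-150487418, plus strand: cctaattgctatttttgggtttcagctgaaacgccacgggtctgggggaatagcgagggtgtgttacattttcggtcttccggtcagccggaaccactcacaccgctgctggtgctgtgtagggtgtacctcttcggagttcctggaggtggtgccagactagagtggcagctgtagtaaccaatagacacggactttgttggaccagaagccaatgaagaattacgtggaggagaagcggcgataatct

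YARS2, the mitochondrial tyrosine enzyme, had 25.4 and 26.3 CPM in control and 49.7 and 58.2 CPM in RBM25_sh libraries. The groups were well separated and the controls nearly equal. Its log2 fold change of 1.06 ± 0.28 missed the edgeR threshold (adjusted p = 0.0703) and passed it with the DESeq2 Wald test (adjusted p = 0.0111) and once GC content was corrected for (1.10 ± 0.15, edgeR adjusted p = 9.4e-04). EARS2, for glutamate, had 49.9 and 46.6 against 68.6 and 69.8 CPM (0.52 ± 0.26, edgeR adjusted p = 0.294) and was called higher after the GC correction (0.59 ± 0.14, edgeR adjusted p = 0.0116). EARS2 shares 370 exonic bases with UBFD1 on the opposite strand, which had more counts and was also higher (2033 and 2220 against 2855 and 2914). WARS2, for tryptophan, had 12.02 and 11.2 against 19.2 and 16.7 CPM (0.63 ± 0.29, edgeR adjusted p = 0.255). RARS2, for arginine, had 31.5 and 31.5 against 42.5 and 40.6 CPM (0.40 ± 0.27, edgeR adjusted p = 0.434).

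VARS2, for valine, had 45.5 and 63.2 CPM in control and 30.4 and 39.3 CPM in RBM25_sh libraries (−0.64 ± 0.30, edgeR adjusted p = 0.255; corrected for GC content −0.44 ± 0.14 and 0.0376). Its exons share 1858 bases with GTF2H4 on the same strand, so its level is uncertain. NARS2, for asparagine, had 26.7 and 22.8 against 35.2 and 27.8 CPM, and FARS2, for phenylalanine, had 6.89 and 7.98 against 4.82 and 6.63 CPM, and neither was called (edgeR adjusted p = 0.531 and 0.565). The other 8 mitochondrial genes had log2 fold changes between −0.38 (SARS2) and 0.37 (PARS2). SARS2 shares 1492 of its 3231 exonic bases with a same-strand gene listed at 0 counts, and its level is uncertain as well. HARS2 and HARS lie head to head on chromosome 5 and share 437 exonic bases. HARS2 had 42.2 and 48.3 against 51.1 and 54.8 CPM (0.23 ± 0.27) and HARS had 72.5 and 86.5 against 80.9 and 92.5 CPM (0.13 ± 0.27), neither of them called.

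Set side by side for the same amino acid, the cytosolic and mitochondrial enzymes formed 17 pairs, with EPRS and FARS2 in more than 1. Of the 17, 13 had a lower log2 fold change in the cytosolic gene, and 10 had opposite signs. The tyrosine pair was the widest, with YARS at −0.86 and YARS2 at 1.06. The YARS to YARS2 ratio in FPKM was 3.30 and 2.97 under control_sh and 0.833 and 0.822 under RBM25_sh. The ratio below 1 holds only per listed gene length, which is 8212 bases for YARS and 2152 for YARS2. In counts YARS stayed the higher under RBM25_sh, at 2360 and 2867 against 742 and 914. The threonine pair went the other way, with TARS at −0.11 and TARS2 at −1.86 and a ratio of 11.1 and 6.99 against 37.4 and 24.0. TARS itself had 361 and 291 CPM against 313 and 289 CPM. For alanine the ratio was 46.4 and 30.1 against 13.0 and 13.96, and for serine 74.5 and 40.2 against 23.8 and 18.8. For valine the values were −0.70 and −0.64, neither called, and the ratios overlapped. The ratios were not tested.

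**Figure D4:**
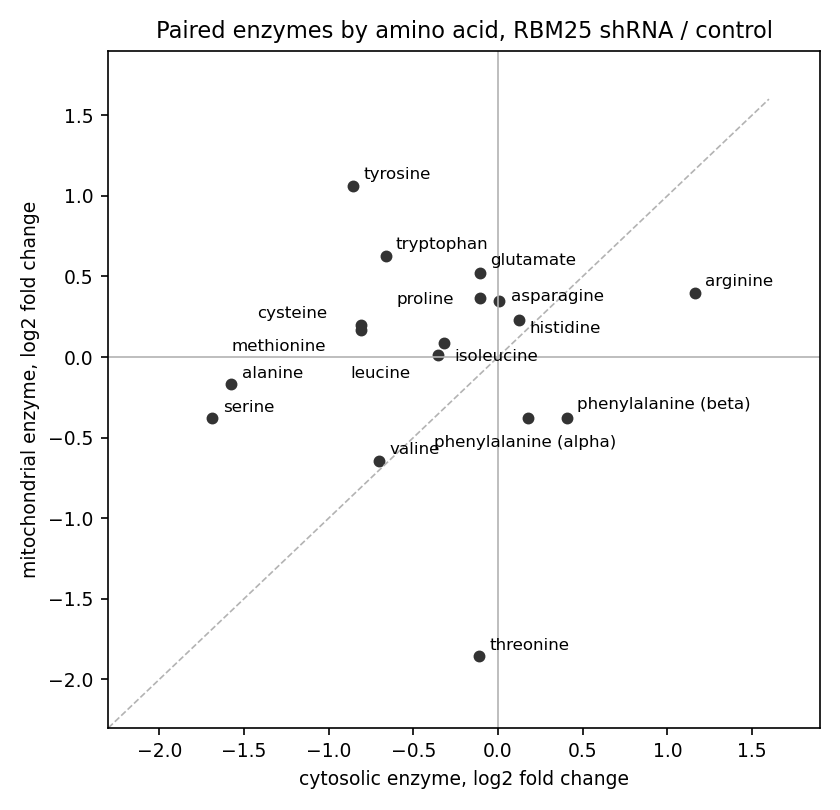
Log2 fold change (RBM25_sh over control_sh) of the cytosolic enzyme (x axis) against the mitochondrial enzyme (y axis) for each amino acid, with a dashed line where they are equal. Most points lie above the line, tyrosine at −0.86 and 1.06 farthest, and threonine lies far below it.

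As classes, the cytosolic genes had a median log2 fold change of −0.30 and the mitochondrial genes one of 0.19, beside −0.04 over all genes tested. The difference of −0.48 describes these members and was not tested. It was −0.48 after the GC correction as well, where the medians were −0.27 and 0.21, and 8 of 20 cytosolic genes were called lower and 2 higher, against 2 lower and 2 higher of 16 mitochondrial genes (12.5% each). All genes had 15.4% called lower and 12.9% higher there, so only the cytosolic count of lower genes, 40%, was well above the background. Without control_sh replicate 1 the cytosolic median was −0.08 and the difference −0.26, and without control_sh replicate 2 they were −0.49 and −0.78, with a mitochondrial median of 0.28. Without RBM25_sh replicate 2 the mitochondrial median was 0.08 and the difference −0.30. In summed FPKM the cytosolic genes had 1074 and 954 under control_sh and 850.3 and 785 under RBM25_sh. The mitochondrial genes had 144 and 133 against 166.1 and 166.1. Neither sum overlapped between groups, and the ratio of the sums went from 7.46 and 7.16 to 5.12 and 4.72. AARS and SARS, with differences in mean FPKM of −93.6 and −53.7, made up most of the −197 in the cytosolic sum, partly offset by RARS at 33.6. YARS2, at 13.2, was the largest single contribution to the net 27.5 in the mitochondrial sum. The ratio of the class medians in FPKM overlapped, at 7.31 and 6.09 in control and 6.72 and 6.24 in RBM25_sh libraries.

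**Figure D5:**
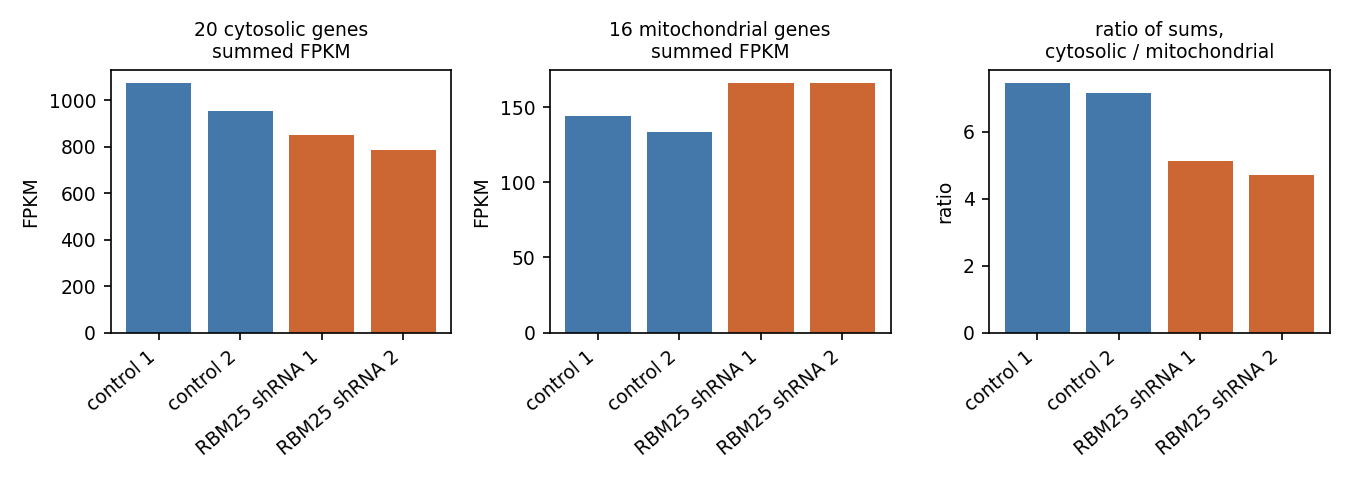
Summed deposited FPKM of the 20 cytosolic genes (left) and the 16 mitochondrial genes (middle) and their ratio (right) in each library, with bars from 0. The cytosolic sum is lower and the mitochondrial sum higher in both RBM25_sh libraries, and the ratio goes from 7.46 and 7.16 to 5.12 and 4.72.

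Genes that work beside the synthetases were measured from a list of 17. None was called by edgeR over all genes, with 2 higher and 1 lower at an unadjusted p under 0.05, beside 7.92% and 13.5% of all genes. The GC correction called 1 higher (5.88%) and 2 lower (11.8%), both below the 12.9% and 15.4% of all genes. The DESeq2 Wald test gave PSTK, the kinase that acts on serine bound to selenocysteine tRNA, an adjusted p of 0.0443. PSTK had 5.82 and 5.69 CPM in control and 13.9 and 11.3 CPM in RBM25_sh libraries (1.13 ± 0.32, edgeR adjusted p = 0.0851). DTD1, which removes D-amino acids from tRNA, had 15.6 and 19.4 against 9.58 and 10.6 CPM (−0.79 ± 0.30, edgeR adjusted p = 0.172). AIMP1, a scaffold of the complex, had 51.7 and 40.7 against 82.8 and 62.5 CPM (0.65 ± 0.29, edgeR adjusted p = 0.231), and the other scaffolds AIMP2 and EEF1E1 were at 0.16 and 0.41. EEF1A1, which carries charged tRNA to the ribosome, was at 0.35 ± 0.22 (edgeR adjusted p = 0.405).

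Other genes of the ATF4 program formed a list of 27, of which 26 passed the filter on low counts. The list was chosen with earlier results of these data known, so its counts only describe it. Of the 26, 8 were called lower by edgeR and 0 higher (30.8%, beside 10% of the cytosolic synthetases and 2.4% of all genes), with 0 higher at an unadjusted p under 0.05. Their median log2 fold change was −1.05, and the difference from the synthetases was not tested. The 4 with the smallest p were PCK2, the mitochondrial phosphoenolpyruvate carboxykinase (−3.65 ± 0.38), DDIT3 (−2.93 ± 0.36), the pseudokinase gene TRIB3 (−2.37 ± 0.33) and the serine synthesis gene PHGDH (−1.67 ± 0.31). ATF4 mRNA had 528 and 644 CPM in control and 432 and 479 CPM in RBM25_sh libraries and was not called (−0.36 ± 0.26, edgeR adjusted p = 0.463). AARS and SARS lay near PHGDH in size, whereas the other cytosolic synthetases had smaller decreases or values at or above the controls.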

How the data were processed

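Total RNA of 4 HCT116 libraries was sequenced on Illumina libraries per the labels' protocols. The submitters' processing notes list Cuffdiff 2.1.1, Cufflinks 2.1.1, TopHat2 2.0.9 and Bowtie2 2.0.6 with no role stated. Counting tool, strand setting and build: not given in the sources used here. The deposited counts are whole numbers per gene. The deposited FPKM equal those counts divided by listed length and 1 factor per library (1.06, 1.10, 0.951 and 0.998 times its total count). All 58735 gene positions equal those of GENCODE 29 on GRCh38.

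Counts were fitted with edgeR 4.0.16 in R 4.3.3 on the whole table (filterByExpr defaults, TMM, quasi-likelihood F test, group as the only term, 2 residual degrees of freedom, two-sided, Benjamini-Hochberg over 16091 genes, threshold 0.05). The SE is the log2 fold change divided by the square root of F. Libraries of a group differed by more than counting noise (chi-square per degree of freedom 62.5 in control and 24.6 in RBM25_sh), so no library was a repeat count of another, which does not show separate cultures. Alternatives were other scalings and filters, DESeq2 1.42.0, limma 3.58.1 (voom, and trend on log2(FPKM + 1) or log2(FPKM + 0.1)), a block on the replicate number, each library left out, and offsets that remove each library's loess trend with the GC content (and length) of the longest GENCODE transcript. The fits were tested on simulated data. Once replicates were given a GC trend there, the fit without the GC correction missed changes that the corrected fit recovered. That trend was built from the same GC values that the correction uses, so this outcome was largely set in advance. Across genes of the real libraries, log2 fold changes also tended to be lower where GC was higher (rank coefficient −0.305, Spearman). The simulation therefore does not show that the corrected calls in these libraries are right. The members and lists were chosen with earlier results of these data known. Members with the 8 smallest p-values per class, those changed at least 1.5-fold and called after the GC correction, and GARS, KARS, HARS and HARS2 are given in full, and other members named by level, complex or motif by a part of their values. Up to 4 genes of each further list with the smallest p are given, and ATF4, AIMP2 and EEF1E1 were added after their values were seen. Sequences are from RefSeq, matched by current symbol through the gene ID. Figures were drawn with matplotlib 3.10.9.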

Additional observations from a re-analysis of the deposited data

How the results depend on the processing

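Of the medians of both classes and their difference, none moved by more than the spread between libraries or changed sign under any alternative run. That spread was 0.22 for the cytosolic median, 0.21 for the mitochondrial median and 0.41 for the difference. The main values were −0.30, 0.19 and −0.48, so the spread was near their size and above the mitochondrial median. A limit this wide cannot show that the medians are stable. The difference ranged from −0.78 to −0.26 without 1 library, the cytosolic median from −0.49 to −0.08 and the mitochondrial median from 0.08 to 0.28. With library totals as the scaling the median of all genes went from −0.04 to −0.15, the cytosolic median to −0.41 and the mitochondrial median to 0.07.

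The numbers of called genes did depend on the fit. Against 2 cytosolic genes lower, 0 higher, 1 mitochondrial gene lower and 0 higher, the GC correction and the GC and length correction each gave 8, 2, 2 and 2, beside 15.4% and 16.2% of all genes called lower and 12.9% and 13.8% higher. The GC correction with the replicate block gave 8, 3, 2 and 3, beside 20.1% and 17.7% of all genes. The DESeq2 Wald test and the fit with no filter each gave 1 higher gene in either class, beside 2.4% and 1.42% of all genes. With limma-trend on log2(FPKM + 1), 0 mitochondrial genes were lower, beside 0.976% of all genes. Leaving out 1 library changed these numbers and the share of all genes called as well. Such a fit leaves 1 library in a group, so its counts are not given.

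The replicate block alone gave 7 cytosolic genes lower and 3 higher, and 2 mitochondrial genes lower and 3 higher, while the calls over all genes went from 386 lower and 105 higher to 3081 and 2641. Replicate 2 minus replicate 1 had a correlation of 0.76 between the groups across 10380 genes, which are not independent. In both groups that replicate difference rose with transcript GC content (rank coefficient 0.824 in control and 0.837 in RBM25_sh, Spearman). Libraries with the same number thus shared a GC-linked pattern, whose source was not tested. The labels give these 2 pairs only a number and name no shared culture.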

Other observations

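Within the synthetases the replicates of each group differed in the same direction in most genes. Replicate 2 lay above replicate 1 in both groups in 8 of 20 cytosolic and 10 of 16 mitochondrial genes, with median transcript GC contents of 53.7% and 54.3%. It lay below replicate 1 in both groups in 10 and 4 genes, with median GC contents of 43.4% and 43.1%. IARS, for example, had 750.4 and 479 CPM in control and 514 and 471 CPM in RBM25_sh libraries, and FARSA had 57.6 and 104 against 69.4 and 113 CPM. These genes were picked after their values were seen.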
